A study of Drosophila melanogaster with 46 samples.

Results

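The cuticle protein genes of Drosophila melanogaster were followed through 15 comparisons of sexes, tissues and sex-determination mutants. Members were the array elements whose gene symbol began with Cpr, Ccp, Lcp, Twdl or Vajk followed by letters or digits. This gave 94 genes of the 10850 named on the arrays, carried by 100 of 15732 elements. There were 62 Cpr, 6 Ccp, 6 Lcp, 16 Twdl and 4 Vajk genes, and all 94 were found in the RefSeq gene table. By chromosome arm, 35 lay on 3L, 24 on 3R, 21 on 2R, 9 on 2L and 5 on X. The rule used the names alone and no measured value.

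The insect cuticle is a layered matrix of chitin fibres and proteins that the epidermis secretes onto the body surface, the trachea, the foregut and hindgut and the reproductive ducts. Cpr proteins carry the Rebers and Riddiford domain, which binds chitin. Lcp genes were named as larval cuticle proteins, and the Ccp genes form a cluster on the right arm of the third chromosome, and both groups belong to the same Rebers and Riddiford family. Tweedle (Twdl) proteins are a separate family first known from mutants with a changed body shape, and the Vajk genes also encode cuticle proteins. Most cuticle protein genes are known for bursts of transcription at moults, and adults go on depositing inner cuticle in the first days after eclosion.

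All flies were adults of 3 to 5 days raised at 25 C on GIF medium. Females and males of the y[1]w[67c] strain (y[1]w[1] in some channel labels) were used as whole flies, as dissected ovaries or testes, and as gonadectomized carcasses. The XX;tra2 flies had the genotype w[67c]/w[67c];tra2[B]/TRIX, with XY siblings of the genotype w[67c]/BsY;tra2[B]/TRIX. The XX;dsx flies were +/+;dsx[M+R45]/dsx[swe]. Tudor females and males carried tud[1] bw[1]sp[1], had mothers of that genotype and lack a germline by their label. transformer 2 (tra2) acts with transformer to splice doublesex (dsx) RNA into its female form, so that XX flies without tra2 develop a male soma. Mutants and the wild-type strain also differ in genetic background, so that the mutation and the background cannot be told apart.

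Each array compared 2 samples labelled with Cy3 and Cy5 from 200 ng of mRNA per probe. The value is a log ratio, read here as log2. Of the comparisons, 7 had 4 arrays and 8 had 2, and every ratio was turned so that its sign is that of the named first sample over the second. The direction is likely rather than stated, because the deposited tables do not name the numerator. All 4 whole-fly arrays gave females more signal for the yolk genes Yp1 to Yp3, and all 4 gonad arrays gave the testis more signal for the sperm genes dj, Mst87F and betaTub85D. A member is called higher or lower where its limma p-value, adjusted over all elements of the comparison, was under 0.05. The labels do not say that repeat arrays came from separate extracts, so the p-values rest on a spread between arrays that may be technical. That spread was pooled for each element over all comparisons, so a p-value does not reflect the spread of its own comparison alone. In female over male carcass, Vajk2 had an SD between arrays of 1.35 and a standard error (SE) of 0.24. In females over males, Lcp65Ad had an SD of 0.97 on 2 arrays and an SE of 0.26. A ratio gives no absolute level, and fewer cells of a type and less RNA per cell cannot be told apart in these whole tissues.

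Between 7994 and 14881 elements were measured per array, with a median of 12375. Some arrays stood apart in ways that touch the results. On arrays 7b and 8b of ovary against female carcass, the first sub-array ran opposite in sign to its partners and was left out. Array 4a of female against male carcass had a wider spread, with an SD of 0.649 over all elements against 0.396, 0.350 and 0.332 on arrays 3a, 3b and 4b. Ratios on the tudor arrays were compressed: for the 2305 elements past 2-fold between ovary and testis, the difference rebuilt through tudor males was 0.575 times the direct one, and 0.559 times through tudor females for 2058 elements, while the route through carcasses gave 0.977 times. The route through tudor flies gave 0.758 times the direct sex difference of whole flies, over 980 elements. The cause was not tested, and whether the tudor ratios are on the same log base as the others cannot be told from the files. Their printed log2 sizes may therefore be on another scale, and differences that mix them with other arrays share that limit. In female against male carcasses, 9 of 12 sperm genes and 11 of 12 accessory gland genes were lower and 6 of 10 eggshell genes higher.

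**Figure D1:**
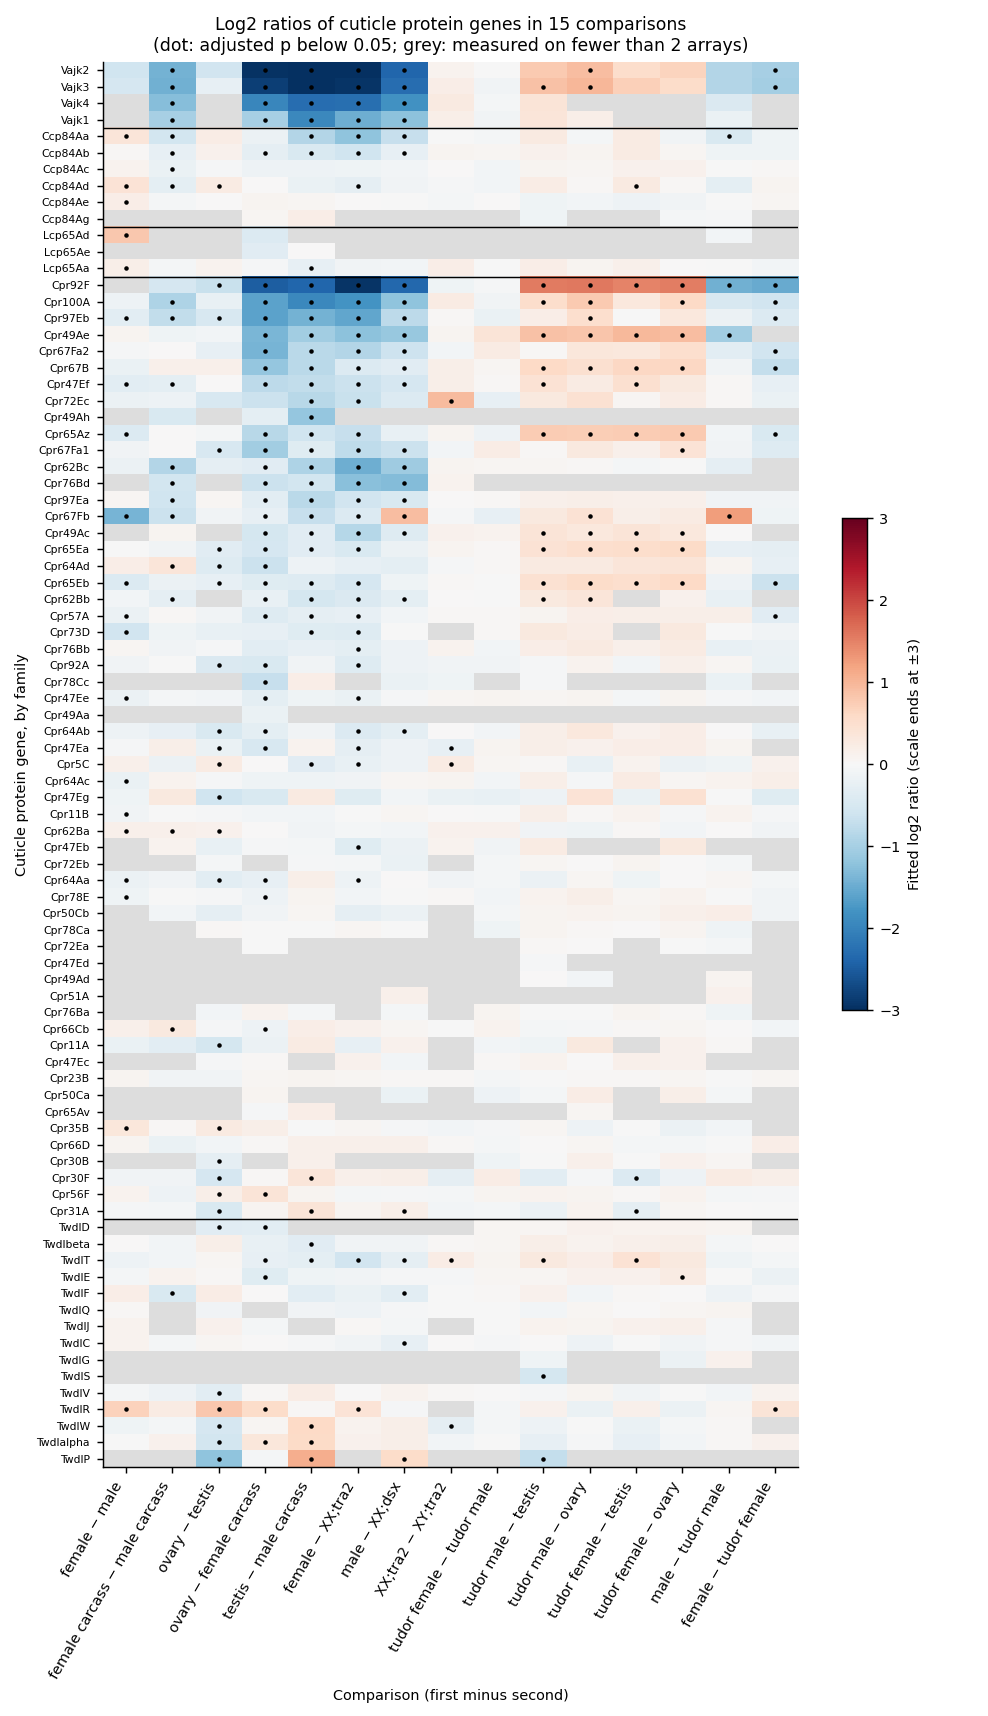
Fitted log2 ratio of each cuticle protein gene tested at least once (rows, by family) in the 15 comparisons (columns), with blue below 0, red above 0, a dot where the adjusted p was below 0.05 and grey where fewer than 2 arrays measured it. Vajk2, Vajk3 and Cpr92F carry the deepest blue in the gonad and mutant columns, and the column of tudor females over tudor males is pale throughout.

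Of the 94 members, 27 were measured on all 46 arrays of the series and 2, Cpr12A and Cpr65Ec, on none. A member was measured on a median of 41 arrays. In all, 9 members were tested in no comparison and 46 in all 15. At least 1 call was made for 66 members, and 17 were called in 6 comparisons or more: Ccp84Aa, Cpr47Ef, Cpr49Ac, Cpr49Ae, Cpr62Bb, Cpr65Az, Cpr65Ea, Cpr65Eb, Cpr67B, Cpr67Fa1, Cpr67Fb, Cpr92F, Cpr97Eb, Cpr100A, TwdlT, Vajk2 and Vajk3. Cpr92F was called most often, in 11 of the 14 comparisons that tested it, followed by Cpr65Eb in 10 of 15. On the 2 arrays that hybridised mixed-sex RNA to itself, no member reached a 2-fold ratio, with 80 members between -0.285 and 0.324 on the first and 51 between -0.328 and 0.233 on the second.

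**Figure D2:**
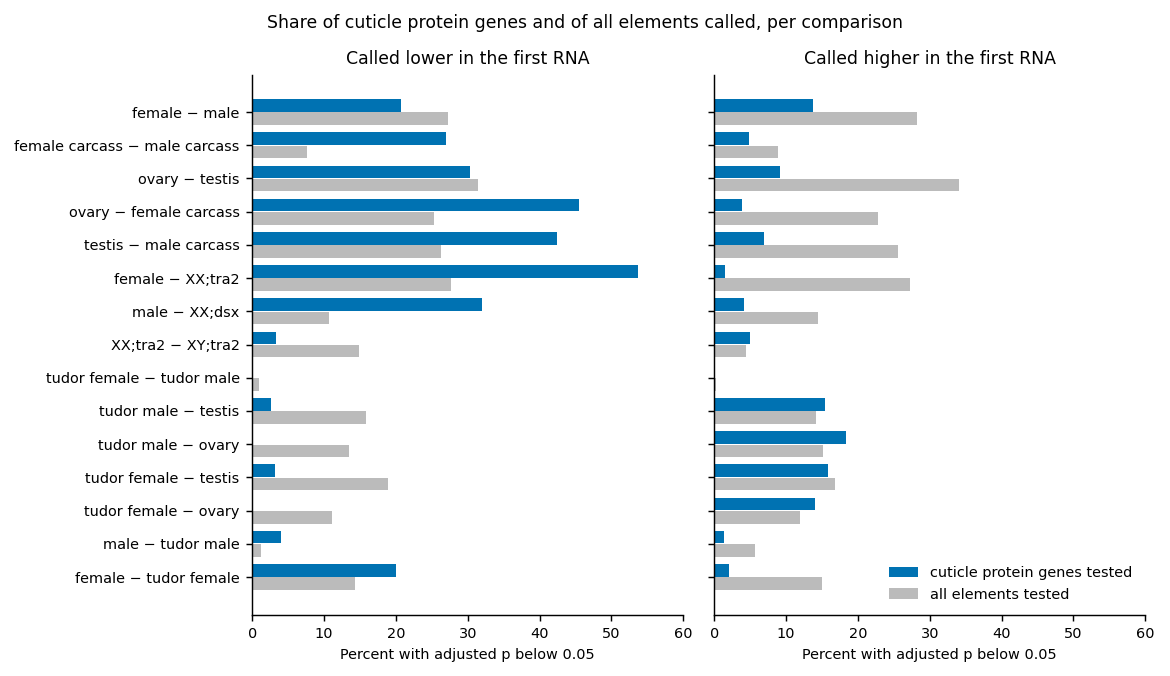
Percent of the cuticle protein genes tested (blue) and of all elements tested (grey) that were called lower (left) and higher (right) in each comparison. The blue bars reach 45.5% lower for ovary over female carcass and 53.7% lower for females over XX;tra2 flies, and there are none between tudor sexes.

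Many cuticle protein genes were lower in both gonads than in the carcass of the same sex, led by the Vajk genes and Cpr92F. In ovary over female carcass, 35 of 77 members tested were lower and 3 higher, with a median log2 ratio of -0.24. Among all elements tested there, 25.3% were lower and 22.8% higher, so that the lower share of members, 45.5%, lay above the background and the higher share, 3.90%, below it. In testis over male carcass, 31 of 73 members were lower, a share of 42.5%, and 5 higher, with a median of -0.13. All elements gave 26.3% lower and 25.6% higher in that comparison. The 4 Vajk genes were lower in both, as were 27 of 52 Cpr genes in ovary and 22 of 50 in testis. With each array left out in turn, 14 of the 38 ovary calls held, 7 were lost, and 17 rest on too few arrays to leave any out, Vajk2, Vajk3 and Vajk4 among them. In testis 18 of the 36 calls held, all 4 Vajk genes included.

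Vajk2 had log2 ratios of -2.91 and -3.01 on ovary arrays 7a and 8a, and -2.93 and -3.35 on the testis arrays. Its values on ovary arrays 7b and 8b, which lie in the sub-array of opposite sign and were left out, were 2.58 and 2.45 before centring, once turned to ovary over carcass. With the values of that sub-array kept, the fitted ovary ratios were -0.23 for Vajk2, -0.17 for Vajk3 and -0.21 for Vajk4, none of them called. With their sign reversed instead, the 18 recomputed ovary values of named members, these genes among them, kept direction and call. Without that sub-array, Vajk2 had fitted log2 ratios of -2.96 (SE 0.35, adjusted p = 8.9e-08) and -3.14, the first being 7.78-fold. Vajk3 followed at -2.82 in ovary and -3.26 in testis, where its arrays read -3.20 and -3.32. Vajk4 gave -1.97 and -2.28, and Vajk1 gave -1.0 and -1.94. The values used for these 2 comparisons lay below 0 for the 4 genes, and Vajk1 had the fitted ratio nearest to 0 in each.

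Cpr92F, a Rebers and Riddiford gene, was the lowest Cpr member. Its ovary arrays read -1.92, -2.38, -2.89 and -2.68, and its testis arrays -2.43 and -2.33. The fitted ratios were -2.46 (SE 0.19, adjusted p = 2.5e-11) and -2.38 (SE 0.28, adjusted p = 5.8e-08). Cpr100A (-1.61 in ovary and -1.94 in testis), Cpr97Eb (-1.60 and -1.43) and Cpr49Ae (-1.38 and -1.05) were lower in both. Cpr67Fa2, Cpr67B and Cpr67Fa1 were also called lower in both, at -1.40, -1.17 and -1.05 in ovary. The testis calls of Cpr67Fa1 and Cpr67Fa2 were lost without some array. Cpr49Ah was lower in testis at -1.16, a call lost without array 9 (-1.14) or 10 (-1.19). Cpr62Bc was lower in testis at -0.92 and in ovary at -0.34 (adjusted p = 0.036), where the call was lost without some array. Ccp84Aa was lower in testis at -0.89 and not called in ovary (-0.18, adjusted p = 0.11). Of 34 members lower in ovary and 31 lower in testis among those tested in both, 24 were shared, which is 70.6% of the first and 77.4% of the second. Overlaps here and below were counted among members alone, so whether such sharing is particular to them was not tested.

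Flight muscle genes moved with the Vajk and Cpr members in these comparisons. Of 14 tested, 14 were lower in ovary than female carcass with a median of -2.62, and 13 were lower in testis than male carcass with a median of -2.79. Their part in the result was not tested.

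A few members lay on the gonad side. TwdlR was higher in ovary than female carcass at 0.56 (SE 0.14, adjusted p = 0.0015), with array values of 0.493 and 0.623, and was not called in testis, at 0.03 (adjusted p = 0.90). TwdlP showed the converse, with 1.24 and 0.931 on the testis arrays, a fitted 1.08 (adjusted p = 0.00053), and -0.05 in ovary (adjusted p = 0.86). TwdlW (0.59), Twdlalpha (0.57), Cpr31A (0.38) and Cpr30F (0.36) were also higher in testis than male carcass. A second element of Cpr31A gave 0.05 (adjusted p = 0.80). Without array 9, Twdlalpha was at 0.41 (adjusted p = 0.057), Cpr31A at 0.32 (adjusted p = 0.080) and Cpr30F at 0.29 (adjusted p = 0.33), and Cpr30F was lost without array 10 too (0.44, adjusted p = 0.099). Cpr56F (0.38) and Twdlalpha (0.33) were higher in ovary than female carcass. Accessory gland genes moved with these testis values: 11 of 11 were higher in testis than in male carcass, with a median of 1.13. Their part in the values of TwdlP and TwdlW was not tested.

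The direct comparison of ovary with testis gave 20 of 66 members lower and 6 higher, with a median of -0.09. All elements gave 31.4% lower and 34.1% higher, against 30.3% and 9.09% of members. With arrays scaled to the same spread the split was 9 lower and 1 higher. TwdlP read -1.24, -1.27, -1.67 and -0.663 on the 4 arrays, a fitted -1.21 (SE 0.13, adjusted p = 5.2e-06), so every array placed it on the testis side. TwdlR read 0.906, 0.504 and 0.970 on the 3 arrays that measured it, a fitted 0.81 (adjusted p = 6.0e-07), all on the ovary side. Of 13 Twdl genes 5 were lower in ovary, among them TwdlW at -0.51 and Twdlalpha at -0.54. Cpr92F was also lower in ovary at -0.66, and Cpr11A, Cpr30F, Cpr97Eb and Cpr31A lay between -0.53 and -0.45, with a second element of Cpr31A at -0.19 (adjusted p = 0.23). Cpr47Eg at -0.60 was no longer called without array 5a (-0.51, adjusted p = 0.084) or without array 6b (-0.57, adjusted p = 0.052).

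The 2 gonads were then compared after setting each against its own carcass, as ovary over female carcass minus testis over male carcass. Of 70 members, 7 were higher and 7 lower, at 10% each, below the 15.0% higher and 18.1% lower of all elements. With ratios left uncentred the split was 3 higher and 10 lower, and with arrays scaled to the same spread it was 1 higher and 3 lower. The difference was -1.13 for TwdlP and 0.53 for TwdlR. It was 0.95 for Vajk1 and 0.71 for Ccp84Aa, both of which were lower in testis relative to carcass than in ovary relative to carcass. Cpr67Fa1 (-0.68), Cpr47Ea (-0.60) and TwdlW (-0.54) differed in the opposite direction. With each array left out in turn, the calls of Ccp84Aa and Cpr47Ea held and the other 12 were lost, for example TwdlP without array 9 (-0.94, adjusted p = 0.093) and Vajk1 without array 10 (0.73, adjusted p = 0.18). TwdlR (0.53 without either, adjusted p = 0.14 and 0.13) was lost without array 9 or 10, TwdlW without array 9 (-0.50, adjusted p = 0.10) and Cpr67Fa1 without array 10 (-0.58, adjusted p = 0.083).

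**Figure D3:**
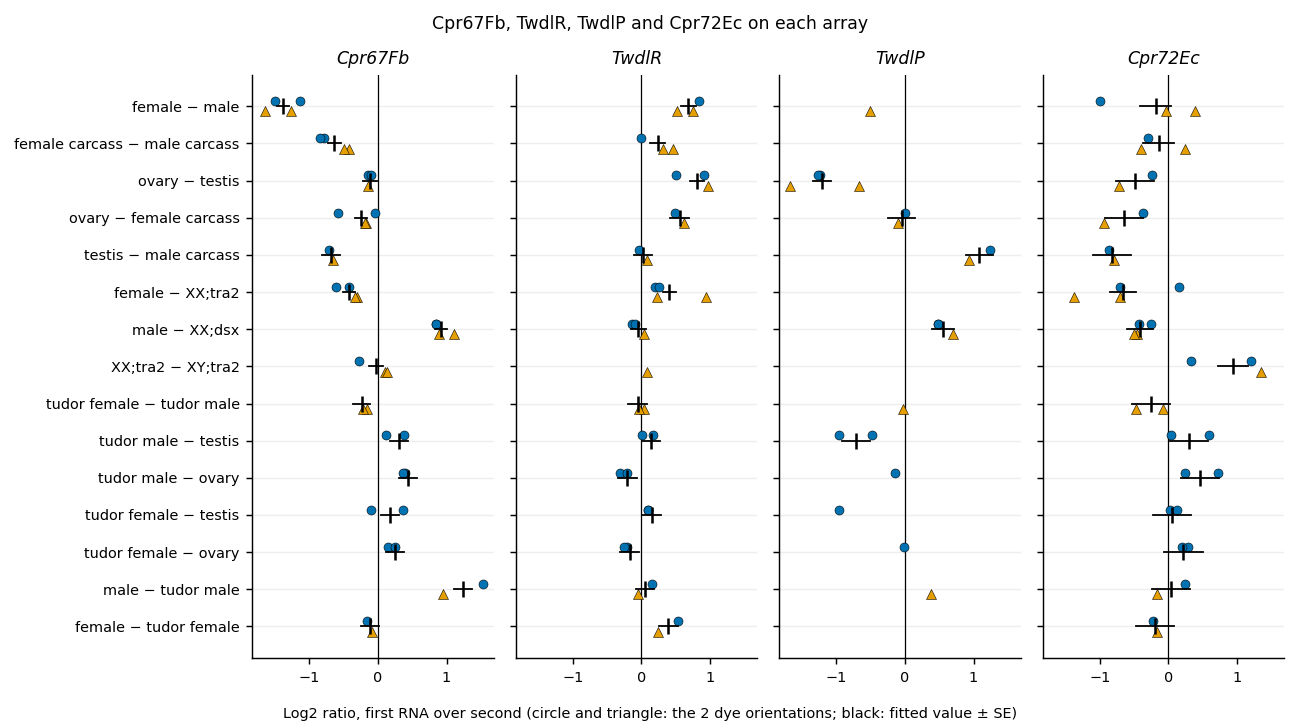
Log2 ratio on each array (circles and triangles, the 2 dye orientations) and fitted value ± SE (black) for Cpr67Fb, TwdlR, TwdlP and Cpr72Ec in the 15 comparisons, with the line at 0 marking equal signal. In ovary over testis TwdlP lies below 0 and TwdlR above 0 on every array that measured them, and Cpr67Fb lies below 0 on all 4 arrays of females over males and above 0 on all 4 of males over XX;dsx flies.

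XX;tra2 flies had more signal than wild-type females for most of the Vajk and Cpr genes tested. In females over XX;tra2 flies, 36 of 67 members were lower and 1 higher, with a median of -0.26. All elements gave 27.7% lower and 27.2% higher, against 53.7% and 1.49% of members. The lower members were 28 of 46 Cpr genes, 4 of 4 Vajk genes and 3 of 5 Ccp genes, with TwdlT as the 1 other. In males over XX;dsx flies, 23 of 72 members were lower and 3 higher, with a median of -0.14. There the background was 10.7% lower and 14.4% higher, against 31.9% and 4.17% of members. With each array left out in turn, 31 of the 37 calls against XX;tra2 and 17 of the 26 against XX;dsx held, all Vajk genes included.

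Vajk2 read -3.25, -2.70, -3.73 and -2.96 on the 4 arrays of females over XX;tra2 flies. All 4 arrays lay far below 0, and the fitted ratio was -3.16 (SE 0.24, adjusted p = 3.2e-11), an 8.93-fold difference. A second element for the gene gave -2.58. In males over XX;dsx flies the arrays of Vajk2 read -2.66, -2.02, -2.84 and -2.02, a fitted -2.38. Vajk3 was at -2.95 against XX;tra2 and -2.29 against XX;dsx, Vajk4 at -2.26 and -1.82, and Vajk1 at -1.46 and -1.22. The order of the 4 Vajk genes was the same in both comparisons, though Vajk2 and Vajk3 differed by less than the standard error of Vajk2.

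Cpr92F read -2.80, -2.70, -3.22 and -3.06 against XX;tra2, a fitted -2.95 (SE 0.19, adjusted p = 8.5e-13), and -2.81, -2.03, -2.54 and -2.03 against XX;dsx, a fitted -2.35 (adjusted p = 2.1e-10). Below 0 in both comparisons were also Cpr100A (-1.79 and -1.21), Cpr62Bc (-1.47 and -1.06), Cpr76Bd (-1.24 and -1.30) and Cpr49Ae (-1.23 and -1.13), each of them called. Cpr97Eb was at -1.55 and -0.79, and Ccp84Aa at -1.20 against XX;tra2. TwdlR was the only member higher in females than XX;tra2 flies, with array values of 0.204, 0.258, 0.940 and 0.225 and a fitted 0.41 (adjusted p = 0.00071), or 0.24 without array 12a (adjusted p = 0.032). The 3 members higher in males than XX;dsx flies were Cpr67Fb (0.92), TwdlP (0.56) and Cpr31A (0.18). A second element of Cpr31A gave -0.18 (adjusted p = 0.29). TwdlP was no longer called without array 13a (0.60, adjusted p = 0.065), 13b (0.59, adjusted p = 0.063) or 14a (0.46, adjusted p = 0.21), nor Cpr31A without 13a (0.20, adjusted p = 0.061), 14a (0.14, adjusted p = 0.26) or 14b (0.14, adjusted p = 0.24).

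Both mutants were XX and were set against different wild-type sexes, so the lists share no control. Of the 36 members lower than in XX;tra2 and the 23 lower than in XX;dsx, 21 were shared among the 67 tested in both, which is 58.3% of the first list and 91.3% of the second. The list lower than in XX;tra2 shared 29 members with the 33 lower in ovary than female carcass, which is 80.6% and 87.9% of those tested in both. The list lower than in XX;dsx shared 20 members with the 30 lower in testis than male carcass, 87.0% and 66.7%. The sharing among all elements was not computed for these lists. Flight muscle genes again moved with the members: 14 of 14 were lower in females than XX;tra2 flies, with a median of -2.09, and 12 of 14 were lower in males than XX;dsx flies, with a median of -1.39. Their part in the result was not tested.

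**Figure D4:**
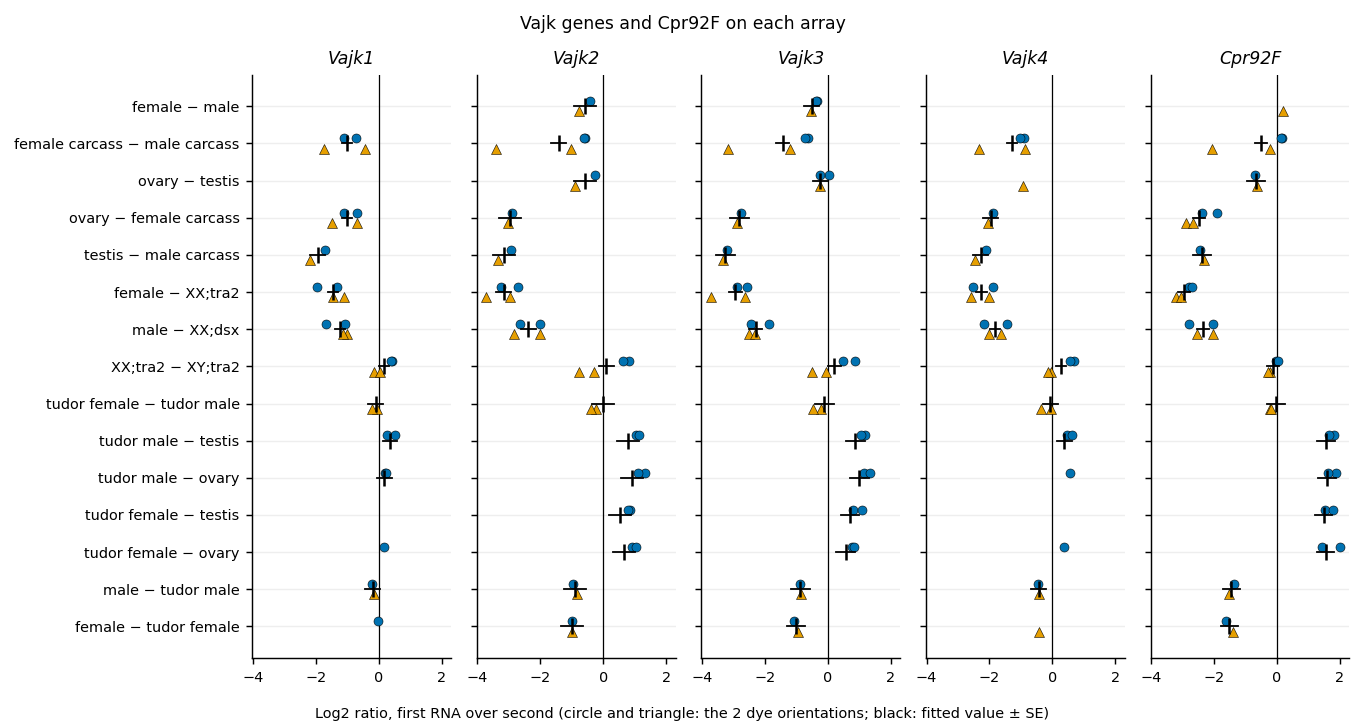
Log2 ratio on each array (circles and triangles, the 2 dye orientations) and fitted value ± SE (black) for Vajk1, Vajk2, Vajk3, Vajk4 and Cpr92F in the 15 comparisons, with the line at 0 marking equal signal. In females over XX;tra2 flies the Vajk2 points lie between -3.73 and -2.70, and in female over male carcass array 4a lies apart for Vajk2, at -3.41.

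Wild-type males were also estimated indirectly against XX;tra2 flies. The difference between females over XX;tra2 and females over males, which estimates males over XX;tra2 flies, was lower for 19 of 57 members and higher for 1, against 10.1% lower and 6.96% higher of all elements. Vajk2 was at -2.56, Vajk3 at -2.43, Cpr100A at -1.64, Ccp84Aa at -1.56 and Cpr49Ae at -1.31. For these genes the estimate placed wild-type males, like females, below XX;tra2 flies. Cpr67Fb was the 1 member higher, at 0.97. When each array was left out in turn, 12 of the 20 calls held, 6 were lost, and Vajk2 and Cpr62Bc rest on too few arrays to leave any out. In the same difference 11 of 14 flight muscle genes were lower, with a median of -1.40.

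XX;tra2 flies and their XY;tra2 siblings were close for the members. Of 60 tested, 3 were higher in XX;tra2 flies and 2 lower, with a median of 0.03, against 4.44% higher and 14.8% lower of all elements. Left uncentred, the split was 2 higher and 3 lower. Cpr72Ec, which encodes a component of the corneal lens of the eye, read 1.20, 0.322 and 1.35 on the 3 arrays that measured it, a fitted 0.94 (SE 0.22, adjusted p = 0.0026). Without array 16a it was at 0.70 and no longer called (adjusted p = 0.096). The XY flies carry BsY, a Y chromosome with the eye-reducing marker Bar of Stone, and 6 of 6 photoreceptor genes, a list chosen after values were seen, were higher in the XX flies with a median of 1.02. Arr1, a visual arrestin, was at 2.04. The part of eye size in the Cpr72Ec value was not tested.

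The other calls between the tra2 siblings were small, and each was lost without some array. Cpr5C (0.24) and TwdlT (0.22) were higher in XX flies, and TwdlW (-0.27) and Cpr47Ea (-0.24) lower. Cpr5C was no longer called without array 15a (0.20, adjusted p = 0.12), 15b (0.15, adjusted p = 0.25) or 16b (0.22, adjusted p = 0.099) and was at 0.39 without 16a. TwdlT was no longer called without array 15a (0.20, adjusted p = 0.13) or 15b (0.12, adjusted p = 0.37), TwdlW without 16a (-0.23, adjusted p = 0.24) or 16b (-0.21, adjusted p = 0.29), and Cpr47Ea without 15b (-0.11, adjusted p = 0.45). Vajk2 was at 0.09 (adjusted p = 0.86), with array values of 0.819, 0.623, -0.758 and -0.304 that took opposite signs in the 2 dye orientations. No flight muscle gene of 14 was called there, with a median of 0.20.

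Between females and males, the share of members called lower lay above that of all elements in carcasses and below it in whole flies. The comparisons had 3 lower members in common. In carcasses, 17 of 63 members were lower in females and 3 higher, with a median of -0.10, against 7.65% lower and 8.91% higher of all elements. In whole flies, 12 of 58 were lower in females and 8 higher, with a median of -0.05, against 27.3% lower and 28.2% higher of all elements and shares of 20.7% and 13.8% of members. The 20 calls became 5 lower and 4 higher with arrays scaled to the same spread, and 4 lower and 4 higher with these arrays fitted alone. Of the 14 members lower in female carcasses and the 12 lower in whole females among those tested in both, 3 were shared: Cpr47Ef, Cpr67Fb and Cpr97Eb. That is 21.4% of the first list and 25.0% of the second.

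The Vajk genes were the lowest members in female carcasses. Vajk3 read -0.64, -0.73, -3.17 and -1.21 on arrays 3a, 3b, 4a and 4b, a fitted -1.43 (adjusted p = 9.1e-06), and Vajk2 read -0.58, -0.62, -3.41 and -1.04, a fitted -1.41 (adjusted p = 0.00012). All arrays lay on the male side, and array 4a lay far below the others. Without array 4a, Vajk3 was at -0.91 (adjusted p = 0.00015) and Vajk2 at -0.81 (adjusted p = 0.0030). Vajk4 (-1.28, or -0.96 without 4a) and Vajk1 (-1.0, or -0.76) were also lower. In whole flies, Vajk2 at -0.60 (adjusted p = 0.15) and Vajk3 at -0.51 (adjusted p = 0.072) did not pass the test.

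Among the Cpr members of the carcasses, Cpr100A read -0.770, -0.856, -1.58 and -0.507, a fitted -0.93 (adjusted p = 8.7e-06). Cpr62Bc was at -0.89, Cpr97Eb at -0.73 and Cpr97Ea at -0.60. Cpr66Cb (0.29), Cpr64Ad (0.35) and Cpr62Ba (0.16) were the 3 higher in females, and array 4a gave Cpr64Ad 1.24 where the others lay between -0.0274 and 0.135. Cpr47Ef (-0.29) and Cpr62Bb (-0.27) were no longer called without array 4a, at -0.15 (adjusted p = 0.35) and -0.13 (adjusted p = 0.55). Without that array Cpr66Cb (0.19, adjusted p = 0.12), Cpr62Ba (0.10, adjusted p = 0.43) and Cpr64Ad (0.09, adjusted p = 0.73) were not called either. Cpr47Ef and Cpr62Bb also missed the threshold without array 3a, at -0.27 (adjusted p = 0.053) and -0.28 (adjusted p = 0.094). Cpr62Bb was at -0.41 without array 4b. When these 4 arrays were fitted alone, no member was called. Of 14 flight muscle genes 1 was lower in female carcasses, with a median of -0.18. Of the 17 members lower in female carcasses and the 23 lower in males than XX;dsx flies, 14 were shared, 82.4% and 60.9%.

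Cpr67Fb had the largest sex difference of the members in whole flies. Its arrays read -1.14, -1.5, -1.27 and -1.64, a fitted -1.38 (SE 0.09, adjusted p = 1.1e-13), which is 2.61-fold toward males, and no array came near 0. In carcasses its arrays read -0.783, -0.840, -0.418 and -0.501, a fitted -0.64 (SE 0.09, adjusted p = 6.0e-06). It was lower in testis than male carcass at -0.69 (adjusted p = 5.6e-05), with arrays at -0.718 and -0.658. It was higher in males than XX;dsx flies on all 4 arrays, at 0.850, 0.845, 1.11 and 0.890. It was higher in males than tudor males, at 0.955 and 1.53, a fitted 1.24 (adjusted p = 7.5e-08), and at -0.12 in females over tudor females (adjusted p = 0.54). In females over XX;tra2 flies it was lower, at -0.42, and the difference from the sex contrast was 0.97, which places XX;tra2 flies between wild-type females and males. In ovary over female carcass it was at -0.25 and lost its call without array 7b (-0.15, adjusted p = 0.24), 8a (-0.25, adjusted p = 0.051) or 8b (-0.25, adjusted p = 0.057).

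The remaining calls in whole flies were smaller. Cpr73D was lower in females at -0.58, or -0.31 without array 1a, where it read -1.15. Cpr65Az (-0.42), Cpr65Eb (-0.40), Cpr47Ef (-0.32) and Cpr97Eb (-0.32) were also lower, and Cpr97Eb was at -0.21 without array 1a (adjusted p = 0.15). Lcp65Ad was higher in females at 0.81 (adjusted p = 0.035) on 2 arrays that read 0.131 and 1.5. TwdlR was higher in females at 0.68, with arrays at 0.843, 0.754 and 0.515. Cpr35B (0.35) was higher in females too. In whole females 10 of 14 flight muscle genes were lower, with a median of -0.69.

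In the Ccp84A cluster, Ccp84Aa and Ccp84Ad were called on opposite sides in whole flies and carcasses. Ccp84Ab (0.04, adjusted p = 0.70) and Ccp84Ac (0.11, adjusted p = 0.17) were not called in whole flies, nor Ccp84Ae in carcasses (-0.05, adjusted p = 0.56). In whole flies 3 of 5 members tested were higher in females and none lower: Ccp84Ad at 0.41, Ccp84Aa at 0.36 and Ccp84Ae at 0.19. In carcasses 4 of 5 were lower in females and none higher: Ccp84Aa at -0.55, Ccp84Ad at -0.29, Ccp84Ab at -0.26 and Ccp84Ac at -0.19. Ccp84Aa read 0.255, 0.584 and 0.213 on the whole-fly arrays and -0.548, -0.419, -0.803 and -0.410 on the carcass arrays, so that the 2 sets do not overlap. The direction of the 5 genes was the same with arrays uncentred or scaled to the same spread. Without array 1b, Ccp84Aa in whole flies was at 0.23 and no longer called (adjusted p = 0.13). In carcasses, Ccp84Ab (-0.26, adjusted p = 0.11) and Ccp84Ac (-0.20, adjusted p = 0.17) were no longer called without array 4a, and Ccp84Ad without array 3b (-0.20, adjusted p = 0.086). A second element of Ccp84Ad gave 0.15 in whole flies (adjusted p = 0.16). Neighbouring Ccp genes are similar in sequence, and shared signal between their elements was not tested.

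The difference between the 2 sex contrasts, whole flies minus carcasses, was tested in the same fit. It was higher for 14 of 55 members and lower for 5, shares of 25.5% and 9.09%, against 17% higher and 18.9% lower of all elements. With arrays scaled to the same spread the split was 13 higher and 1 lower. All 5 Ccp84A genes tested were among those higher, from 0.24 to 0.90. Vajk3 was at 0.92, Cpr100A at 0.77 and Cpr62Bc at 0.72, and these leaned to males in carcasses more than in whole flies. TwdlF (0.67), Cpr97Ea (0.66), TwdlR (0.44) and Cpr97Eb (0.42) followed. Cpr67Fb (-0.75), Cpr73D (-0.45), Cpr65Az (-0.44), Cpr67B (-0.33) and Cpr64Ac (-0.30) were the 5 lower, and these leaned to males in whole flies more than in carcasses. With each array left out in turn, the calls of Ccp84Aa, Ccp84Ad, Cpr100A, Cpr65Az, Cpr67Fb, Cpr97Ea and TwdlF held, 11 were lost, and Cpr62Bc could not be tested in each case. Vajk3 was at 0.42 without array 4a (adjusted p = 0.13), Cpr73D at -0.19 without array 1a (adjusted p = 0.22), and TwdlR at 0.33 without array 1a (adjusted p = 0.15). The calls of Cpr97Eb, Cpr67B and Cpr64Ac were each lost without any of several arrays.

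**Figure D5:**
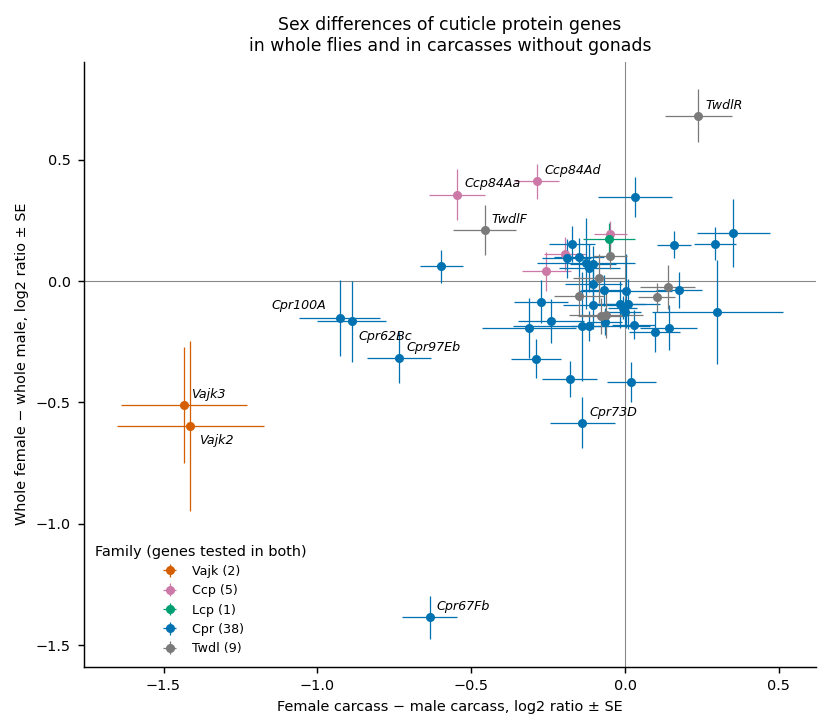
Fitted log2 ratio of females over males, with its SE, in carcasses (x axis) and in whole flies (y axis) for each cuticle protein gene tested in both, coloured by family. Cpr67Fb lies lowest, at -1.38 in whole flies and -0.64 in carcasses, and Ccp84Aa lies to the upper left, at 0.36 and -0.55.

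Tudor flies lack a germline, and no member was called between their sexes. In tudor females over tudor males, none of 70 members was called by limma, none reached an unadjusted p of 0.05, and the median was -0.01. All elements gave 0.86% lower and 0.261% higher. With arrays scaled to the same spread, 11 members were higher and 4 lower. This comparison had 2 arrays of 1 dye orientation, and the fit takes out a dye term learnt from the other arrays. Vajk3 read -0.225 and -0.470 on the arrays and -0.11 after that term, and Cpr67Fb read -0.160 and -0.225 on the arrays and -0.24 after it. The sex difference of carcasses minus that of tudor flies was lower for 2 of 61 members, Cpr62Bc at -0.95 and Cpr97Ea at -0.63, and higher for none, with 13 at an unadjusted p under 0.05. All elements gave 0.0663% lower and 0.0947% higher. This difference mixes the compressed tudor arrays with others. Both calls were lost without array 17a, 17b or 4a, with Cpr62Bc at -0.75 (adjusted p = 0.25) and Cpr97Ea at -0.53 (adjusted p = 0.16) without 4a.

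Against gonads, tudor flies had more signal for Cpr92F, Cpr49Ae and Cpr65Az in all 4 comparisons, while the share of members called higher was near that of all elements. In tudor males over testis 12 of 78 members were higher and 2 lower (median 0.09), with 14.2% and 15.9% of all elements. In tudor males over ovary 13 of 71 were higher and none lower (median 0.10), with 15.2% and 13.5% of all elements. In tudor females over testis 10 of 63 were higher and 2 lower (median 0.12), with 16.8% and 18.9%, and 10 higher and none lower with arrays scaled to the same spread. In tudor females over ovary 10 of 71 were higher and none lower (median 0.12), with 11.9% and 11.1%. The higher shares of members ran from 14.1% to 18.3%, and the lower shares, at most 3.17%, were below the background. Leaving out each array in turn kept 2 of the 14, 3 of the 13, 3 of the 12 and 3 of the 10 calls, Cpr65Az in each.

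Cpr92F led each of the 4 tudor and gonad comparisons. Its arrays read 1.81 and 1.65 for tudor males over testis, 1.87 and 1.63 for tudor males over ovary, 1.51 and 1.77 for tudor females over testis, and 1.42 and 2.01 for tudor females over ovary. The fitted values were 1.56, 1.58, 1.48 and 1.54, and the last was no longer called without array 21b (1.25, adjusted p = 0.055). Fitted values of Cpr49Ae lay between 0.83 and 0.98 and those of Cpr65Az between 0.74 and 0.78 in the 4 comparisons. Each of the 4 had 2 arrays of 1 dye orientation, so these values depend on a dye term learnt from the other arrays. In tudor females over testis, Cpr65Az read 0.46 and 0.675 and was fitted at 0.75. Vajk2 read 0.86 and 0.77 there and was fitted at 0.52. Cpr49Ae missed the threshold without array 18a, 18b, 19a, 19b, 20b or 21b. Vajk3 (1.00) and Vajk2 (0.92) were higher in tudor males than ovary, and neither was called without array 19a (1.10 and 0.80) or 19b (0.90 and 1.04). TwdlP was lower in tudor males than testis at -0.71 and lost its call without array 18a (-0.47, adjusted p = 0.40). TwdlS was lower there too, at -0.54, and lost its call without either array. In each of the 4, 12 of 14 flight muscle genes were higher, with medians from 1.11 to 1.54.

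Wild-type flies were also set against tudor flies of their sex. In females over tudor females 10 of 50 members were lower and 1 higher, with a median of -0.10, against 14.3% lower and 15.0% higher of all elements. The lower share was 20.0%. Cpr92F was at -1.51, Vajk3 at -1.01, Vajk2 at -0.99, Cpr67B at -0.71 and Cpr65Eb at -0.65, and TwdlR was higher at 0.39. Without array 25, Cpr92F was at -1.22 (adjusted p = 0.088), Vajk3 at -0.71 (adjusted p = 0.42), Vajk2 at -0.70 (adjusted p = 0.53), Cpr67B at -0.60 (adjusted p = 0.083) and Cpr65Eb at -0.50 (adjusted p = 0.071). Without array 24, Vajk2 was at -1.29 and again not called (adjusted p = 0.083), and TwdlR was at 0.17 without array 25 (adjusted p = 0.70). None of the 11 calls held with each array left out in turn. Of 14 flight muscle genes 13 were lower there, with a median of -1.47.

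In males over tudor males 3 of 75 members were lower and 1 higher, with a median of -0.03, against 1.14% lower and 5.65% higher of all elements. With arrays scaled to the same spread, 12 were lower and 3 higher. The higher member was Cpr67Fb. The lower were Cpr92F at -1.45, Cpr49Ae at -1.03 and Ccp84Aa at -0.46. Without array 23, Cpr92F was at -1.35 (adjusted p = 0.084), Cpr49Ae at -0.67 (adjusted p = 0.56) and Ccp84Aa at -0.33 (adjusted p = 0.79), and Ccp84Aa was at -0.59 without array 22 (adjusted p = 0.084). Vajk3 read -0.850 and -0.895, a fitted -0.87 that did not pass the test (adjusted p = 0.084). Of 14 flight muscle genes 3 were lower, with a median of -0.43.

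The excess of Vajk and Cpr signal in the tra2 mutant was set against that in tudor flies, as a comparison added after seeing the data. Females over XX;tra2 minus females over tudor females, which estimates tudor females over XX;tra2 flies, was lower for 8 of 50 members and higher for none, against 0.954% lower and 0.58% higher of all elements. The 8 were Vajk2 (-2.16), Vajk3 (-1.93), Cpr92F (-1.43), Cpr100A (-1.21), Cpr97Eb (-1.14), Ccp84Aa (-1.07), TwdlT (-0.50) and Cpr97Ea (-0.48). In this difference 1 of 14 flight muscle genes was lower, with a median of -0.62. With each array left out in turn, the calls of Ccp84Aa and Cpr97Eb held and 6 were lost, Vajk2 (-1.87, adjusted p = 0.23), Vajk3 (-1.62, adjusted p = 0.19) and Cpr92F (-1.14, adjusted p = 0.55) among them without array 24. With arrays scaled to the same spread, 3 members were called. For XX;dsx flies the matching difference, males over XX;dsx minus males over tudor males, was called by limma for 0 of 68 members, with 15 at an unadjusted p under 0.05. All elements gave 0.139% lower and 0.0328% higher, and 13 members were lower with arrays scaled to the same spread. Both differences rest in part on the compressed tudor arrays.

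Members that lie in the same stretch of a chromosome did not all move alike. There were 7 stretches that held 4 or more members with neighbours within 50 kb. In females over XX;tra2 flies the lower members were 4 of 6 tested in the Cpr47E stretch (2R), 2 of 2 in Cpr49A (2R), 2 of 4 in Cpr64A (3L), 2 of 2 in Cpr76B (3L), 1 of 2 in Cpr65A with Lcp65A (3L), 3 of 5 in Ccp84A (3R) and 0 of 2 in the stretch from TwdlP to TwdlD (3R). In the TwdlP to TwdlD stretch 1 of the 2 tested, TwdlR, was higher. All elements of that comparison gave 27.7% lower and 27.2% higher, and 53.7% of members were lower. Whether the counts of any stretch depart from these shares was not tested. Within Ccp84A the ratios of females over XX;tra2 flies ran from -1.20 for Ccp84Aa to 0.00 for Ccp84Ae. In the TwdlP to TwdlD stretch, TwdlP and TwdlR took opposite sides of ovary over testis. The Cpr65A with Lcp65A stretch held Cpr65Az, lower in females than males, and Lcp65Ad, which was higher. Lcp65Ac and Lcp65Aa lie between them, and Lcp65Ad rests on 2 arrays that read 0.131 and 1.5.

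Other genes that build cuticle leaned the same way as the members against the tra2 mutant. Of 10 genes of chitin synthesis and export, 7 were lower in females than XX;tra2 flies and none higher (median -0.40), among them the chitin synthase gene kkv at -0.90. Of 15 chitin deacetylase and chitinase genes tested, 13 were lower and none higher (median -0.73), led by Cda5 at -1.69. Of 17 tanning and pigmentation genes, 14 were lower and none higher (median -0.41), led by ple, which encodes tyrosine hydroxylase, at -1.45. Gasp, a chitin-binding protein of the peritrophin type, was at -1.98. These list counts stand beside a background of 27.7% lower and 27.2% higher, as above. Of 12 moulting hormone regulators, 4 were lower and none higher, with a median of 0.04.

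The same lists against XX;dsx flies gave 4 of 9, 9 of 16 and 7 of 18 lower beside 10.7% of all elements, with 1 tanning gene higher, and 0 of 13 moulting regulators lower with 1 higher. Ple was at -1.19 and the ebony gene e at -0.92. In ovary over female carcass 6 of 10 chitin synthesis genes, 12 of 16 deacetylase and chitinase genes and 11 of 18 tanning genes were lower beside 25.3% of all elements, with 2 tanning genes higher. In testis over male carcass the counts were 7 of 9, 12 of 16 and 13 of 18 lower beside 26.3% of all elements, again with 2 tanning genes higher, and Cht5, a chitinase, was at -1.96. In female over male carcass 2 of 10, 6 of 16 and 7 of 18 were lower and 1, 2 and 2 higher, beside 7.65% and 8.91% of all elements, with kkv at -0.74. In females over males, where 27.3% of all elements were lower and 28.2% higher, Gld, a glucose dehydrogenase of the cuticle and reproductive tract, was at -1.25, and Ddc, the dopa decarboxylase of tanning, at -1.17. Both were named for the size of their ratio, and the direction of the lists as a whole is not given there.

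A pair of cuticle genes with other names stood outside the rule. Acp65Aa, an adult cuticle protein gene, was at -1.60 in females over XX;tra2 flies, -1.26 in males over XX;dsx flies, -1.88 in ovary over female carcass and -1.29 in testis over male carcass. Pcp, a pupal cuticle protein gene, was at 0.83 in female over male carcass and -1.05 in ovary over female carcass. Another 19 members were tested and never called by the element used here, Cpr66D among them. A second element of Cpr66D was at 0.36 in testis over male carcass (adjusted p = 0.0099), where the element used gave 0.15 (adjusted p = 0.29). The 9 members tested nowhere were Cpr12A, Cpr49Af, Cpr65Ec, Cpr76Bc, Cpr78Cb, Lcp9, Lcp65Ac, Lcp65Af and TwdlO.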

How the data were processed

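The authors deposited a log ratio per spot for 46 two-colour arrays of 31464 spots. The deposited values were treated as log2, since the sources used here do not give their log base, numerator, background correction or scaling. Each of 15732 elements is spotted in duplicate, and the duplicates were averaged (r across elements 0.602 to 0.987 per array). Every array was centred on its median and turned by its title. The 9626 first sub-array values of arrays 7b and 8b were left out because they ran opposite to array 7a (r = -0.876). The mean log2 ratio was fitted with limma 3.58.1 (R 4.3.3) over 44 arrays, with a coefficient per comparison and a dye coefficient per element. The number in the array title, where arrays can share a number and differ by letter, was a random block (correlation -0.0671). The titles do not say what a shared number stands for. Elements on at least 2 arrays were tested, with Benjamini-Hochberg adjustment over all elements and a threshold of 0.05. The prior had 4.12 degrees of freedom and the median residual SD was 0.198 on the log2 scale. The code was tested on simulated data. Gene symbols came from GEO's platform annotation, where 12586 elements have 1 gene symbol, 73 several and 3073 none.

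Members, gene lists and tests were chosen with earlier results of these data known. The text names the 8 largest called members per comparison that had 1 sign on all their arrays, the members called in at least 6 comparisons, and the members of stretches of 4 or more with neighbours within 50 kb. Other members that were called are named after their values were seen. For members with several elements, the element measured on more arrays was used. The number of arrays limits the precision.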

Additional observations from a re-analysis of the deposited data

Results flagged for a closer look

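In sets of 4 arrays, a member was singled out where 1 array lay apart from the other 3 by more than Dixon's criterion allows. This held for 8 of 67 sets. The criterion singles out about 1 in 20 sets where the 4 arrays vary alike. The sets here share arrays, and whether they exceed that rate was not tested. In female over male carcass, array 4a read -3.41 for Vajk2 and -2.34 for Vajk4. In ovary over testis, array 5a read -1.13 for Cpr47Eg and -0.90 for TwdlW. In females over XX;tra2 flies, array 12a read -1.56 for Cpr49Ae and array 11b read -0.57 for Cpr62Bb. In males over XX;dsx flies, array 14a read -0.51 for Cpr62Bb and 1.11 for Cpr67Fb.

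Other members were singled out because the same contrast differed between 2 settings by a test of the difference in the fit. Many of these calls were lost with 1 array left out: 11 of 19 between whole flies and carcasses, 12 of 14 between ovary and testis, and both between carcasses and tudor flies. Between whole flies and carcasses, the female over male ratio differed by 0.92 for Vajk3, 0.90 for Ccp84Aa, 0.77 for Cpr100A, 0.72 for Cpr62Bc, 0.70 for Ccp84Ad, 0.44 for TwdlR and 0.42 for Cpr97Eb. It differed by -0.75 for Cpr67Fb, -0.45 for Cpr73D, -0.44 for Cpr65Az and -0.33 for Cpr67B. Between carcasses and tudor flies it differed by -0.95 for Cpr62Bc, in a difference that mixes the compressed tudor ratios with others. Between ovary and testis, the gonad over carcass ratio differed by -1.13 for TwdlP, -0.68 for Cpr67Fa1, -0.60 for Cpr47Ea and -0.54 for TwdlW. It differed by 0.95 for Vajk1, 0.71 for Ccp84Aa, 0.58 for Cpr62Bc, 0.53 for TwdlR and 0.44 for Cpr67Fb.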

How the results depend on the processing

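The 170 values of named members were recomputed under other settings, which gave 1649 recomputed values. Of these, 1456 kept their direction and their side of the threshold, 192 kept the direction and lost the call, and 1 reversed. The reversed value was Cpr65Eb in ovary over female carcass, at 0.0213 with arrays 7b and 8b as deposited, where the first sub-array runs opposite. In all, 66 of the 170 lost the call when some array was left out. In a comparison of 2 arrays the lone array is then assumed to vary like the others.

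Counts of called members depended on the setting as follows, and the cause was not tested. At a 2-fold threshold added to the test, the counts were 11 in females over XX;tra2, 9 in males over XX;dsx, 10 in ovary over female carcass, 10 in testis over male carcass, 4 in female over male carcass, 1 in females over males, 1 in ovary over testis, 0 in XX;tra2 over XY;tra2, 2 in females over tudor females, 1 in tudor females over ovary, 1 in tudor females over testis, 2 in tudor males over ovary and 1 in tudor males over testis. For the differences they were 7 for XX;tra2 against sex, 1 for ovary against testis over carcass, 0 for whole flies against carcasses and 0 for carcasses against tudor flies. With arrays scaled to the same spread, the counts were 23 in testis over male carcass, 9 in females over males, 10 in ovary over testis, 8 in XX;tra2 over XY;tra2, 19 in tudor females over ovary, 15 in tudor females over tudor males and 15 in males over tudor males. The differences gave 4 for ovary against testis over carcass, 9 for carcasses against tudor flies, 3 for XX;tra2 against female tudor and 13 for XX;dsx against male tudor. Averaging arrays that share a title number gave 12 in females over males and 7 in males over tudor males. It gave 6 in tudor males over ovary, 8 in tudor males over testis and 1 in XX;tra2 over XY;tra2. Among the differences it gave 11 for whole flies against carcasses and 13 for XX;tra2 against sex. It also gave 0 for carcasses against tudor flies and 1 for XX;dsx against male tudor. Keeping only elements measured on every array gave 15 in ovary over female carcass, 16 in ovary over testis, 2 in XX;tra2 over XY;tra2, 9 for ovary against testis over carcass and 12 for XX;tra2 against sex. Fitting the arrays of 1 comparison alone gave 16 in ovary over testis, 8 in females over males, 1 in XX;tra2 over XY;tra2 and 0 in female over male carcass. Without the dye coefficient there were 3 in XX;tra2 over XY;tra2 and 5 for XX;tra2 against female tudor. With arrays taken as independent there was 1 for carcasses against tudor flies, and with arrays 7b and 8b as deposited 23 in ovary over female carcass.

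Leaving out each array in turn gave 34 to 37 calls in females over XX;tra2 (37 with all arrays), 20 to 25 in males over XX;dsx (26), 15 to 35 in ovary over female carcass (38), 20 to 27 in testis over male carcass (36), 20 to 26 in ovary over testis (26), 12 to 18 in female over male carcass (20), 14 to 20 in females over males (20) and 3 to 5 in XX;tra2 over XY;tra2 (5). For tudor flies it gave 0 to 6 in females over tudor females (11), 1 to 3 in males over tudor males (4), 3 to 7 in tudor females over ovary (10), 6 to 8 in tudor females over testis (12), 4 to 5 in tudor males over ovary (13), 2 to 6 in tudor males over testis (14) and 0 to 0 in tudor females over tudor males (0). The differences gave 13 to 20 for whole flies against carcasses (19), 16 to 19 for XX;tra2 against sex (20), 4 to 12 for ovary against testis over carcass (14), 3 to 8 for XX;tra2 against female tudor (8), 0 to 2 for carcasses against tudor flies (2) and 0 to 0 for XX;dsx against male tudor (0). No paired analysis was possible because the array numbers in the titles are unique to each comparison. Signal over background was not analysed here.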
